A study of Saccharomyces cerevisiae with 12 samples.

Results

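Histones are the proteins that package DNA in the nucleus, and the 10 genes described here encode the histones of Saccharomyces cerevisiae other than the centromeric form. HTA1 and HTA2 encode H2A, HTB1 and HTB2 encode H2B, HHT1 and HHT2 encode H3, HHF1 and HHF2 encode H4, HHO1 encodes the linker histone H1 and HTZ1 encodes the variant H2A.Z. They were taken as the probe sets whose only gene symbol was a listed histone gene, which held for 4 of the 10 genes, HTB1, HTB2, HHO1 and HTZ1, among 5360 genes measured. Each of these 4 genes had 1 probe set. The other 6 genes were seen only through 6 probe sets assigned to both copies of a gene, of which 2 read H2A, 3 read H3 and 1 read H4. These shared probe sets are described as pairs and counted apart from the 4 genes, and no single copy is named from them. All of these probe sets gave signals above the background of the array in every group, so none had passed the filter on dim signals through 1 group alone.

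The RNA was that of a pair of wine yeasts, the commercial EC1118 and the wild-type M25, which is kept in a university collection. The 4 groups were EC1118 with lipids (FSJ), EC1118 without lipids (SJ), M25 in FSJ and M25 in SJ, with 3 biological replicates and therefore 3 arrays in each. SJ is a synthetic grape juice with 200 g/l glucose at pH 3.3, and FSJ is SJ to which ergosterol (15 mg/l) and oleic acid (15 mg/l) were added. All 12 cultures were started from washed 24 h precultures in SJ, at 1000000 cells per ml, and harvested at 60 h. A temperature of 28 °C is given for all 12. Growth stage at harvest was not analysed here.

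In budding yeast the core histone genes lie in divergent pairs that share a promoter region, 1 pair for each copy of H2A with H2B and 1 for each copy of H3 with H4. Their transcription is known to peak around S phase, when new DNA has to be packaged. Outside S phase the HIR complex is known to hold down some of these pairs but not all. H2A.Z, by contrast, is placed into existing chromatin by the SWR1 complex. In release R64 of the yeast annotation HTB1 lies beside HTA1, HTB2 beside HTA2, HHT1 beside HHF1 and HHT2 beside HHF2, each pair on opposite strands, and neither HHO1 nor HTZ1 has a neighbour among the 10 genes.

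Every array gave 1 linear MAS5 signal for each probe set. The trimmed mean signal was 297.8 to 299.9 over the arrays, and the background, taken as the 25th percentile of an array, was 16.6 to 21.7. Replicates had log2 correlations of 0.919 to 0.986, and replicate 2 of EC1118 in FSJ stood furthest from its group, with a mean correlation of 0.931 to the other arrays of that group. The median log2 difference over all 7349 probe sets tested was -0.092 for FSJ over SJ in M25 and 0.13 for EC1118 over M25 in FSJ. With each array centred on its own median, these became 0.095 and -0.11. The split of calls moved with it, in M25 to 633 higher and 240 lower, against 209 and 434 as deposited, and for EC1118 over M25 in FSJ to 942 higher and 1595 lower, against 1665 and 914. Precision is limited by there being 3 arrays a group.

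Histone signals were lower in EC1118 than in M25. In FSJ 3 of the 4 genes with a probe set of their own and all 6 shared probe sets were called lower in EC1118, where a call is a limma p-value under 0.05 after Benjamini-Hochberg adjustment over all probe sets tested. Over all probe sets 12.4% were called lower in that comparison. In SJ 1 of the 4 genes and 5 of the 6 shared probe sets were called lower, against 10.3% of all probe sets. The arrays of EC1118 lay below those of M25 without overlap for 3 of the 4 genes and 6 of the 6 shared probe sets in FSJ (16.6% of all probe sets) and for 2 of the 4 and 5 of the 6 in SJ (22.7%). The median log2 difference of the 4 genes was -0.78 in FSJ and -0.45 in SJ, and that of the 6 shared probe sets was -0.90 and -0.71, beside 0.13 and -0.038 over all probe sets. In bulk RNA, fewer cells that transcribe histone genes and less histone RNA per cell cannot be told apart. Probe sequences were not used here, so a difference in transcript and a difference in the strains' sequence under a probe cannot be told apart either.

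HTB2, 1 of the 2 genes for H2B, had the widest gap between the strains among the 4 genes. Its signals were 571.8, 793.0 and 552.5 in EC1118 in FSJ, against 1376.6, 1781.9 and 1898.9 in M25 in FSJ. In SJ they were 329.6, 507.5 and 521.5 in EC1118, against 846.0, 978.0 and 951.0 in M25. No array of EC1118 reached the lowest of M25 in the same medium. HTB2 was 2.65-fold lower in EC1118 in FSJ (log2 fold change -1.41, SE 0.20, adjusted p = 0.000266) and 2.08-fold lower in SJ (-1.06, SE 0.20, adjusted p = 0.00298). These values lay at percentiles 3.81 and 4.54 of all probe sets. The 4 group means followed the order M25 in FSJ, M25 in SJ, EC1118 in FSJ and EC1118 in SJ, with 1686 ± 274, 925 ± 69.7, 639 ± 134 and 453 ± 107 (SD, n = 3), and no neighbours in that order overlapped.

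HTB1, the other H2B gene, differed between the strains in the lipid medium. It gave 752.5, 760.1 and 1138.4 in EC1118 in FSJ, against 1214.8, 1576.2 and 1679.0 in M25 in FSJ, with no overlap. In SJ it gave 808.0, 950.8 and 1002.4 in EC1118, against 1004.9, 922.6 and 1025.9 in M25, and these arrays overlapped. HTB1 was 1.70-fold lower in EC1118 in FSJ (-0.77, SE 0.17, adjusted p = 0.0051), and in SJ the difference did not pass (-0.10, SE 0.17, adjusted p = 0.755). M25 in FSJ was the highest of the 4 groups, and the other 3 groups, with means of 984 ± 54.6 for M25 in SJ, 920 ± 101 for EC1118 in SJ and 884 ± 221 for EC1118 with lipids, each overlapped the next (SD, n = 3).

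**Figure D1:**
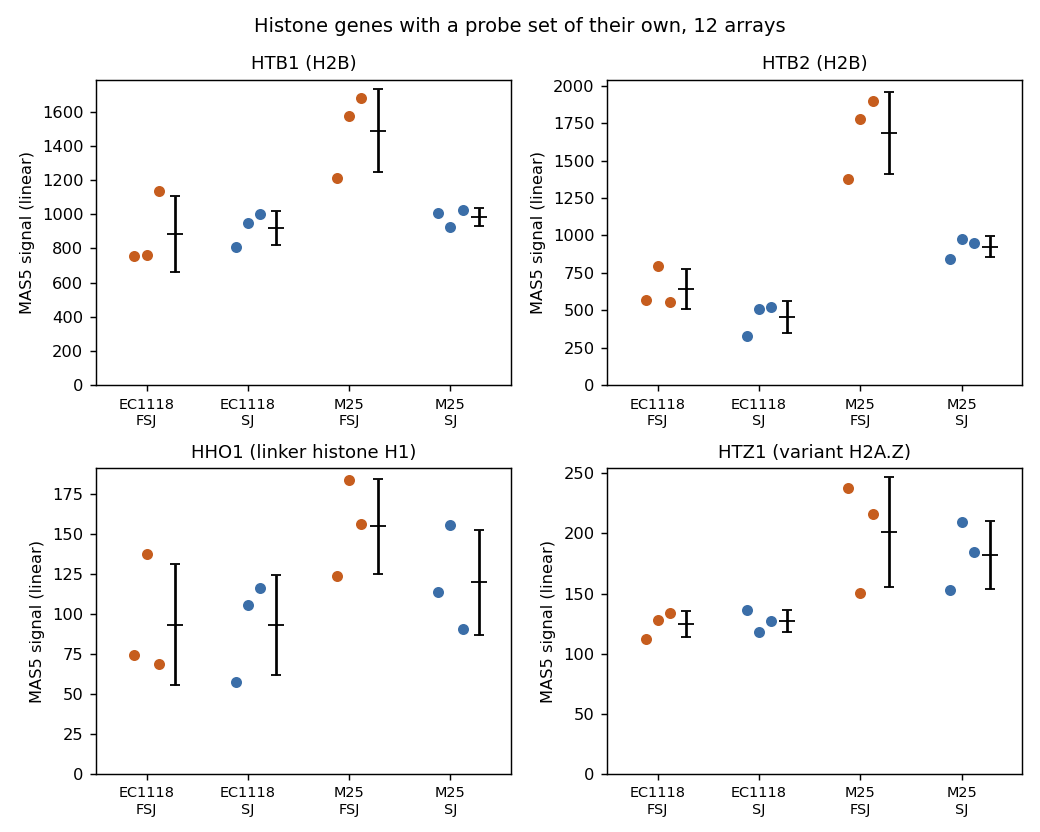
Signals of the 4 histone genes with a probe set of their own on the 12 arrays (linear MAS5 signal, orange points are FSJ arrays, blue points SJ arrays, and the bar beside them is the mean with its SD over 3 arrays). For HTB2 the arrays of EC1118 lie between 329.6 and 793.0 and those of M25 between 846.0 and 1898.9.

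HTZ1, whose product H2A.Z marks the nucleosomes around many promoters, gave 112.3, 128.0 and 133.4 in EC1118 in FSJ, against 238.2, 150.1 and 216.2 in M25 in FSJ. In SJ it gave 136.5, 118.1 and 127.1 in EC1118, against 152.7, 209.2 and 184.8 in M25. All 6 EC1118 arrays lay below all 6 M25 arrays. The difference was called in FSJ (1.59-fold lower, -0.67, SE 0.18, adjusted p = 0.0146) and not in SJ (-0.51, SE 0.18, adjusted p = 0.0748). The call in FSJ was lost with only the compared groups in the fit (adjusted p = 0.0537) and without M25 in FSJ replicate 1 (0.0611), and SJ gained a call with only the compared groups (0.0396) and without M25 in FSJ replicate 2 (0.0315), over ranges of 0.00264 to 0.0611 in FSJ and 0.0315 to 0.236 in SJ. HTZ1 averaged 125 ± 11.0 and 127 ± 9.20 in EC1118 in FSJ and SJ, and 202 ± 45.9 and 182 ± 28.3 in M25 (SD, n = 3).

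HHO1, the linker histone gene, had the widest error of the 4 genes. It gave 74.6, 137.4 and 68.5 in EC1118 in FSJ, against 124.2, 183.9 and 156.7 in M25 in FSJ. In SJ it gave 57.4, 105.9 and 116.3 in EC1118, against 113.6, 155.6 and 90.6 in M25. The groups overlapped in both media. Its strain difference was -0.78 in FSJ (SE 0.33, adjusted p = 0.0838) and -0.39 in SJ (SE 0.33, adjusted p = 0.466), neither of which passed. Without replicate 2 of EC1118 in FSJ, the array that stood apart and gave the 137.4, the FSJ value was -1.10 and was called (adjusted p = 0.0187). It was also called with quantile normalization (0.0318) and with centred arrays (0.0297), over a range of 0.0187 to 0.233.

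The 2 shared H2A probe sets differed between the strains in both media. The first (6236_i_at) gave 1702.3, 1889.8 and 2223.9 in EC1118 in FSJ, against 5228.7, 5342.0 and 4721.9 in M25 in FSJ, and 2047.0, 2283.8 and 2239.4 in EC1118 in SJ, against 4030.8, 3873.7 and 3466.8 in M25 in SJ. It was 2.64-fold lower in EC1118 in FSJ (-1.40, SE 0.11, adjusted p = 2.93e-06) and 1.73-fold lower in SJ (-0.79, SE 0.11, adjusted p = 0.000292). The second (7358_s_at) gave 1135.3, 1347.7 and 1393.3 in EC1118 in FSJ, against 2884.9, 3466.3 and 3007.5 in M25 in FSJ, and 969.1, 1279.3 and 1336.9 in EC1118 in SJ, against 1942.2, 2289.6 and 1956.9 in M25 in SJ. Its differences were 2.42-fold in FSJ (-1.27, SE 0.14, adjusted p = 3.92e-05) and 1.74-fold in SJ (-0.80, SE 0.14, adjusted p = 0.00176). Thus both probe sets put EC1118 below M25 on every array of each medium, and by similar amounts.

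The 3 shared H3 probe sets were lower in EC1118 in FSJ and differed in size in SJ. In FSJ they gave -0.71 (7368_i_at), -0.63 (7369_s_at) and -0.44 (8910_at), with adjusted p = 0.00206, 0.00185 and 0.000514. In SJ they gave -0.44 (adjusted p = 0.044), -0.64 (0.00305) and -0.088 (0.434). The SJ call of 7368_i_at was lost under 11 of its 22 alternatives, over adjusted p-values of 0.00261 to 0.157. Among these were the fits with no filter (0.0778) and without an intensity trend (0.0884). It was also lost without any of the 3 EC1118 in SJ arrays (0.0535, 0.102 and 0.143 without replicates 1, 2 and 3), any of the 3 M25 in FSJ arrays (0.0535, 0.0557 and 0.0554), or M25 in SJ replicates 1 (0.157) or 3 (0.110). For 8910_at the signals were 5684.2, 5992.8 and 6143.3 in EC1118 in FSJ, against 8176.0, 8143.3 and 7795.6 in M25 in FSJ, and in SJ 6049.6, 6431.3 and 5757.2 in EC1118 overlapped 6850.9, 6064.5 and 6470.9 in M25. With quantile normalization the SJ difference of this probe set was called too (-0.27, adjusted p = 0.00401). The 3 probe sets therefore gave different sizes for the same pair of genes.

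The shared H4 probe set (8911_s_at) gave 729.9, 827.1 and 800.5 in EC1118 in FSJ, against 1597.1, 1747.6 and 1708.0 in M25 in FSJ. In SJ it gave 635.9, 843.0 and 617.8 in EC1118, against 1330.1, 1352.2 and 1407.4 in M25. It was 2.14-fold lower in EC1118 in FSJ (-1.10, SE 0.12, adjusted p = 4.62e-05) and 1.97-fold lower in SJ (-0.98, SE 0.12, adjusted p = 0.000171). The strains did not overlap in either medium.

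**Figure D2:**
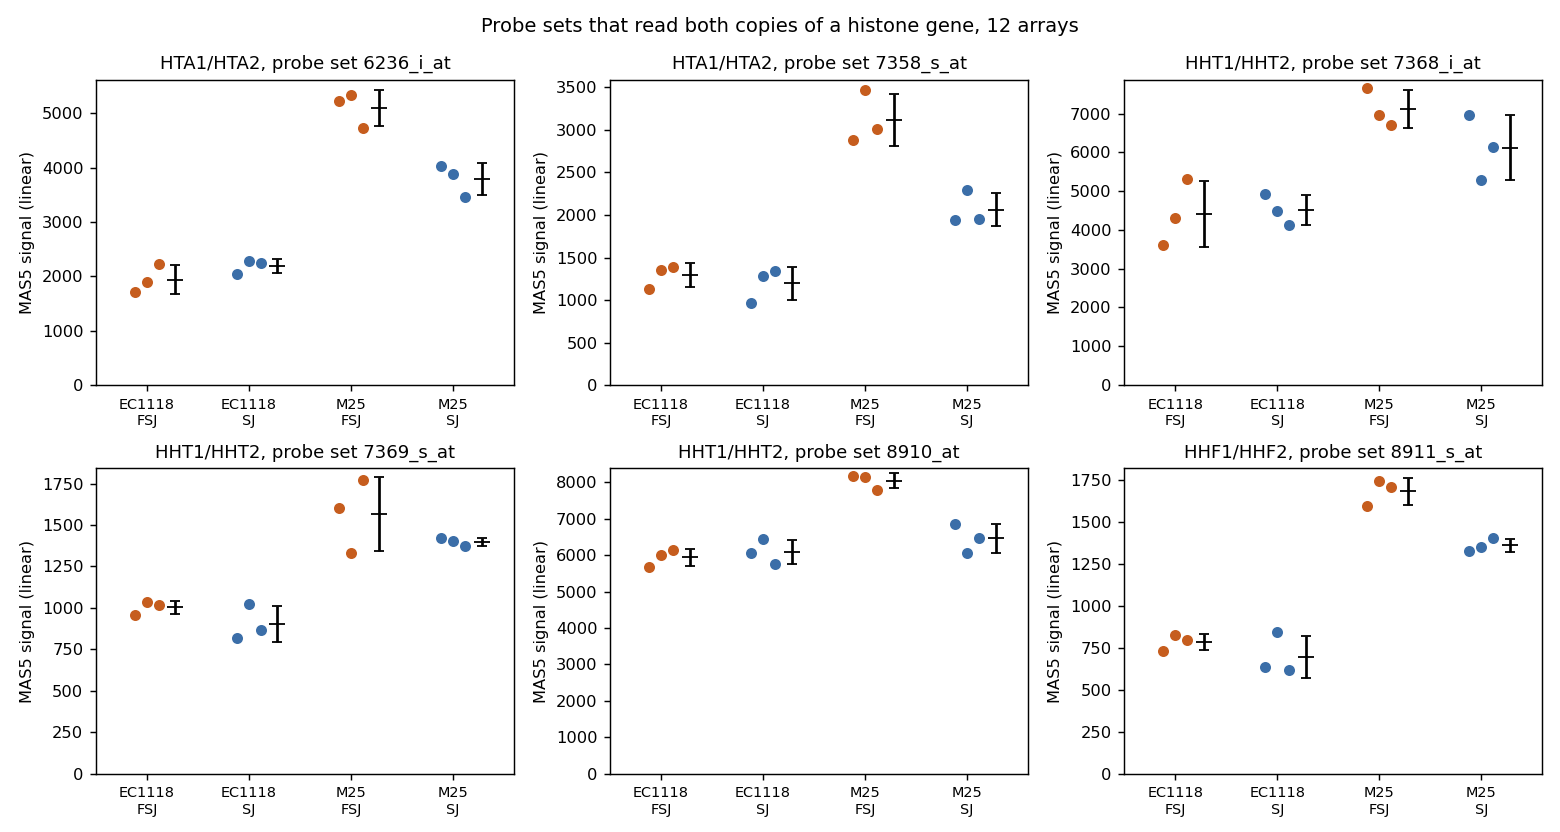
Signals of the 6 probe sets that read both copies of H2A (HTA1/HTA2), H3 (HHT1/HHT2) or H4 (HHF1/HHF2) on the 12 arrays (linear MAS5 signal, orange points are FSJ arrays, blue points SJ arrays, and the bar is the mean with its SD over 3 arrays). The arrays of M25 lie above those of EC1118 in the same medium in each panel except 8910_at in SJ, where the strains overlap.

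HTB2 rose with lipids on average over the strains, and of the 4 genes it was the one called. Its mean effect was 1.60-fold (0.68 on the log2 scale, SE 0.14, adjusted p = 0.0116, 0.00425 to 0.0347 over its alternatives), at percentile 98.2 of all probe sets. Against this 1 of 4, 4.03% of all probe sets were called higher with lipids and 5.06% lower. HTB1 had an averaged effect of 0.25 (adjusted p = 0.238), HHO1 of 0.19 (0.657) and HTZ1 of 0.049 (0.857). Of the 6 shared probe sets 1 was called higher, 7358_s_at for H2A (0.36, SE 0.099, adjusted p = 0.0425). That call was lost under 12 of its 21 alternatives, among them quantile normalization (0.0595), no filter (0.0595) and no intensity trend (0.0748), over a range of 0.0159 to 0.101. It was lost without any of the 3 M25 in FSJ arrays (0.0566, 0.0943 and 0.0676 without replicates 1, 2 and 3), or without replicate 1 (0.099) or 3 (0.101) of M25 in SJ. The same held for replicates 2 (0.0841) and 3 (0.0621) of EC1118 in FSJ and for replicates 1 (0.0743) and 2 (0.0565) of EC1118 in SJ.

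The lipid comparison in M25 and the strain comparison in FSJ share the arrays of M25 in FSJ. Within M25 the FSJ arrays of HTB2, given above, all lay above the SJ arrays, a 1.81-fold rise (0.86, SE 0.20, adjusted p = 0.023). HTB1 was also higher on each FSJ array than on each SJ array in M25, and its fitted value of 0.59 (SE 0.17, adjusted p = 0.0591) did not pass. It passed with centred arrays (0.0125), only the compared groups (0.0395), without EC1118 in FSJ replicate 3 (0.0183) or M25 in FSJ replicate 1 (0.0419), with adjusted p-values of 0.0125 to 0.164 over all alternatives. HHO1 (0.39, adjusted p = 0.499) and HTZ1 (0.13, adjusted p = 0.711) had overlapping groups. In M25 1 of the 4 genes was called higher, beside 2.84% of all probe sets, and 2 of the 4 had groups that did not overlap, beside 11.8%. The HTB2 call in M25 was lost without M25 in FSJ replicate 2 (0.0742) or 3 (0.0726) and without M25 in SJ replicate 1 (0.0827), 2 (0.0571) or 3 (0.066), with adjusted p-values of 0.0069 to 0.0827 over all alternatives.

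Among the shared probe sets, 3 of 6 were called higher with lipids in M25, beside 2.84% of all probe sets. The groups did not overlap for 4 of 6, beside 11.8%. The H2A probe sets rose by 0.43 (6236_i_at, SE 0.11, adjusted p = 0.0296) and 0.60 (7358_s_at, SE 0.14, adjusted p = 0.0223), and the H3 probe set 8910_at rose by 0.32 (SE 0.069, adjusted p = 0.0164). The H4 probe set had 0.30 (adjusted p = 0.146), and the other H3 probe sets had 0.22 (0.343) and 0.15 (0.466). With quantile normalization none of the 3 calls was kept, at adjusted p-values of 0.176, 0.06 and 0.558. None was kept either without M25 in FSJ replicate 2 (0.0929, 0.0812 and 0.0505) or M25 in SJ replicate 3 (0.117, 0.0833 and 0.0566), and 6236_i_at and 7358_s_at were lost without M25 in SJ replicate 1 (0.0554 and 0.0819). Without M25 in SJ replicate 2, 6236_i_at and 8910_at were lost (0.0798 and 0.077), and without M25 in FSJ replicate 1, 6236_i_at was lost (0.0858). Without an intensity trend 6236_i_at (0.0731) and 8910_at (0.0938) were lost.

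In EC1118 no histone probe set was called with lipids in either direction by limma, beside 0.667% of all probe sets called higher and 1.18% lower. At an unadjusted p under 0.05, 1 of the 4 genes was higher, HTB2, and none of the 6 shared probe sets, beside 10.1% of all probe sets higher at that threshold. HTB2 had 0.51 (SE 0.20, adjusted p = 0.26), with each FSJ array above each SJ array, as for 12.3% of all probe sets. HTB1 gave -0.081 ± 0.38, HHO1 -0.0033 ± 0.71 and HTZ1 -0.032 ± 0.40 (log2, 95% interval). The median of the 4 genes was -0.018 in EC1118 and 0.49 in M25, beside 0.065 and -0.092 over all probe sets.

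The lipid effects of the strains were compared directly by the interaction, the effect in EC1118 minus that in M25. It was below 0 for all 4 genes and for 5 of the 6 shared probe sets, while 4772 of all 7349 probe sets lay above 0. No histone probe set passed, beside 0.204% of all probe sets in either direction. At an unadjusted p under 0.05, 1 of the 4 genes (HTB1, -0.67, SE 0.25, adjusted p = 0.254) and 3 of the 6 shared probe sets were lower, beside 3.54% of all probe sets lower at that threshold. Of the 3 shared probe sets, 6236_i_at for H2A had -0.61 (SE 0.15, adjusted p = 0.148). With centred arrays 6236_i_at (adjusted p = 0.0355) and 8910_at (0.0327) were called, and under no other alternative run, over ranges of 0.0355 to 0.433 and 0.0327 to 0.783. The interaction of HTB2 was -0.35 (SE 0.28, adjusted p = 0.562). The median over all probe sets was 0.16 as deposited and -0.089 with centred arrays. The lipid effects in the strains are therefore not shown to differ for any of these genes.

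**Figure D3:**
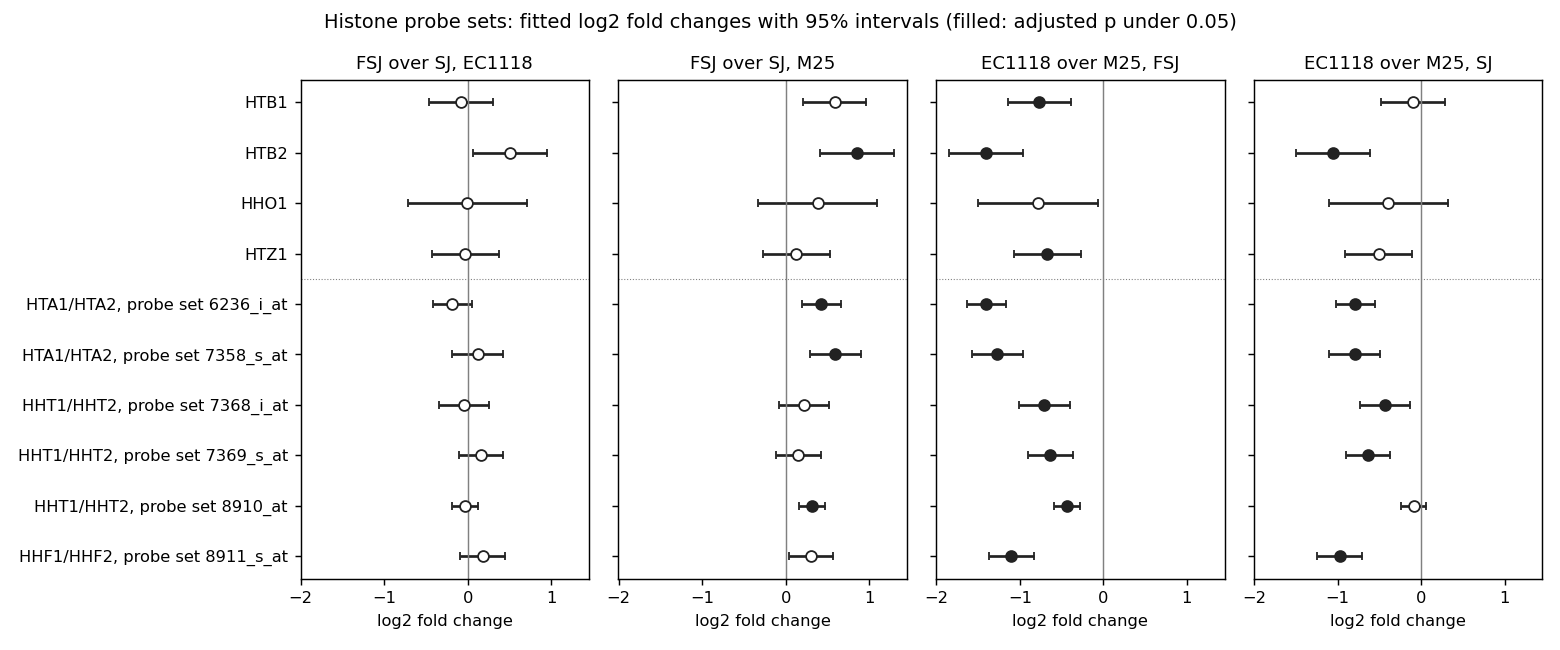
Fitted log2 fold changes of the 10 histone probe sets (points, with 95% intervals from limma) for FSJ over SJ within each strain and EC1118 over M25 within each medium, filled where the adjusted p was under 0.05. For EC1118 over M25 in FSJ 9 of the 10 points are filled and all lie below 0, and for FSJ over SJ in EC1118 none is filled.

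The H2B copies were the only pair that could be compared, since each has its own probe set. The within-array difference, log2 HTB1 signal minus log2 HTB2 signal, carries the unknown ratio of the probe sets, so its shift between groups is the measure and its level is not. It was 0.40, -0.061 and 1.04 in EC1118 in FSJ, against 1.29, 0.91 and 0.94 in EC1118 in SJ. In M25 it was -0.18, -0.18 and -0.18 in FSJ, against 0.25, -0.084 and 0.11 in SJ. The arrays of M25 in FSJ lay below all those of M25 in SJ, and in EC1118 the FSJ arrays overlapped the SJ arrays. Averaged over the strains the difference was lower by 0.43 on the log2 scale in FSJ (value -0.43, exact two-sided permutation within strains, p = 0.045, with 0.005 the smallest p of 400 regroupings). The call was lost without replicate 1 (p = 0.05) or 2 (0.07) of EC1118 in FSJ, any of the EC1118 in SJ arrays (0.11, 0.075 and 0.075) or replicate 1 of M25 in SJ (0.06), over a range of 0.005 to 0.11 for this exact test. Between the strains the same difference was 0.80 higher in EC1118, averaged over the media (exact two-sided permutation within media, p = 0.005, the smallest it can give). This second test was chosen after the data were seen, and its value was 0.65 to 0.93 with any 1 array left out. As read by these probe sets, the shortfall of EC1118 against M25 was larger for HTB2 than for HTB1. Probe sequences were not used, so a strain difference in sequence under either probe set cannot be told apart from one in transcript.

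**Figure D4:**
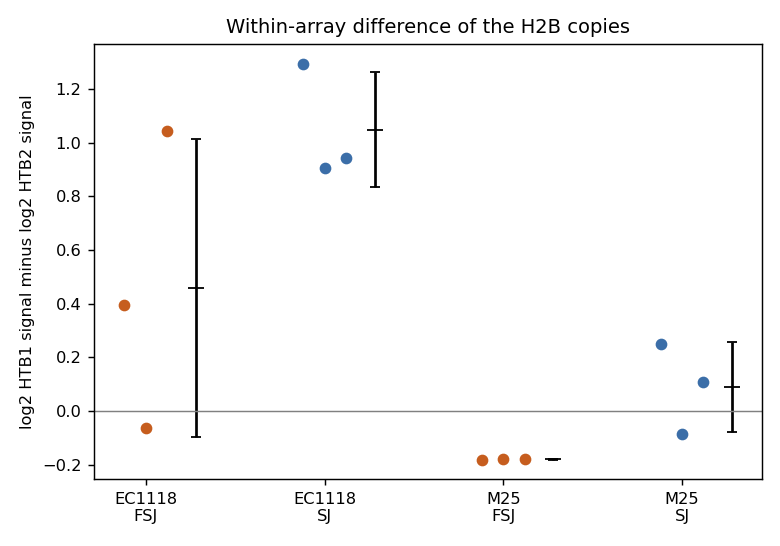
Within-array difference of log2 HTB1 and log2 HTB2 signals on the 12 arrays (points, orange for FSJ and blue for SJ, with the mean and SD over 3 arrays beside them). The 6 arrays of M25 lie between -0.18 and 0.25, and those of EC1118 in SJ between 0.91 and 1.29, with EC1118 in FSJ spread from -0.061 to 1.04.

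Of 20 S-phase genes, which encode replication enzymes and S-phase cyclins, 4 rose with lipids averaged over the strains and none fell, beside 4.03% of all probe sets called higher and 5.06% lower. With 1 array left out 3 to 6 were called higher, with 6 reached without replicate 1 of EC1118 in FSJ. Within EC1118 1 rose and 0 fell, beside 0.667% and 1.18% of all probe sets. That count of 1 ranged from 0 to 2 and moved under 19 of 23 alternatives. Within M25 2 rose and 1 fell, beside 2.84% and 5.91% of all probe sets, the one that fell being CLB5, which encodes an S-phase cyclin (-0.47, adjusted p = 0.0437), named after its values were seen. With quantile normalization or centred arrays no S-phase gene was called lower in M25, nor when any 1 array was left out other than replicates 1 and 3 of EC1118 in FSJ. The count called higher in M25 was 0 to 2 with 1 array left out and 0 without replicate 2 or 3 of M25 in FSJ or replicate 1 or 2 of M25 in SJ. It was 5 with centred arrays. POL12, a subunit of DNA polymerase alpha, averaged 135 ± 13.3 in EC1118 in FSJ, against 78.0 ± 17.3 in SJ, and 161 ± 24.1 in M25 in FSJ, against 112 ± 10.2 in SJ (0.66, SE 0.13, adjusted p = 0.00702). CLB6, another S-phase cyclin gene, also rose (adjusted p = 0.011), with 40.9, 54.7 and 50.0 in M25 in FSJ, against 12.8, 17.8 and 21.8 in SJ, where 1 of the 3 arrays was above the background. In EC1118 it gave 9.4, 22.0 and 10.3 in FSJ, under the background on 2 of the 3 arrays, and was under it on all 3 SJ arrays, so no fold is given. The others called were RNR1, a ribonucleotide reductase subunit (0.63), and POL2, the catalytic subunit of DNA polymerase epsilon (0.58), both named after their values were seen. In EC1118 against M25, 8 of the 20 were called lower in FSJ (13 with centred arrays) and 8 in SJ, 5 of them in both media, beside 12.4% and 10.3% of all probe sets (6.94% in both media). None was called higher. The count in SJ was 4 without replicate 1 of EC1118 in SJ or replicate 1 of M25 in SJ. It was 5 without replicate 2 or 3 of M25 in SJ. The count in FSJ was 5 with only the compared groups and 6 to 7 with any 1 array left out. The median of the list was 0.29 with lipids, and -0.38 in FSJ and -0.59 in SJ for EC1118 over M25. Whether these genes and the histone genes share a cause was not tested.

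The 13 regulators of histone transcription, including the HIR repressor genes and the activators SPT10 and SPT21, gave no call with lipids averaged over the strains, with a median of 0.095. At an unadjusted p under 0.05, 1 was higher and 0 were lower, beside 11.3% and 12.6% of all probe sets. In EC1118 against M25 they were called in both directions, with 2 higher and 2 lower in FSJ (22.7% and 12.4% of all probe sets) and 1 of each in SJ (9.46% and 10.3%). In FSJ 4 were called higher without replicate 2 of M25 in FSJ. Of 16 histone chaperone and import genes 1 rose with lipids and none fell, a share near the 4.03% of all probe sets called higher. It was CAC2, a subunit of the chromatin assembly factor that brings H3 and H4 to replicated DNA (0.58, SE 0.12, adjusted p = 0.0123). CAC2 averaged 255 ± 50.3 in EC1118 in FSJ, against 156 ± 28.3 in SJ, and 308 ± 20.9 in M25 in FSJ, against 224 ± 16.3 in SJ. Its other 3 probe sets had values of 0.40, -0.019 and 0.21 and did not pass, and with the mean of the 4 the call was lost (0.29, adjusted p = 0.14, 0.00429 to 0.14 over its alternatives). Of the 13 SWR1 complex genes 12 were measured, and none was called with lipids (median -0.06). At an unadjusted p under 0.05, 3 were higher and 0 lower, beside 11.3% and 12.6% of all probe sets. In FSJ 4 of the 12 were called higher in EC1118 than in M25, beside 22.7% of all probe sets, and none lower, and 0 of the 12 were called higher with quantile normalization, with centred arrays, with only the compared groups or without replicate 3 of EC1118 in FSJ. Without replicate 3 of M25 in FSJ 2 were.

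Among 16 histone acetyltransferase and deacetylase genes, 14 were measured. Averaged over the strains 1 rose and 1 fell with lipids, shares near the 4.03% and 5.06% over all probe sets. Within M25 0 were called higher, beside 2.84% of all probe sets. HST4, a deacetylase known to act on H3, averaged 114 ± 5.93 in EC1118 in FSJ, against 72.8 ± 2.99 in SJ, and 109 ± 1.83 in M25 in FSJ, against 107 ± 3.42 in SJ (0.34, SE 0.081, adjusted p = 0.0238). The HST4 call was lost without EC1118 in SJ replicate 2 (0.0555) or M25 in SJ replicate 1 (0.0652), 2 (0.0533) or 3 (0.053), over a range of 0.00802 to 0.0652. HPA2, an acetyltransferase of histones, fell (adjusted p = 0.000361), at 23.2 ± 11.3 in EC1118 in FSJ, against 111 ± 50.4 in SJ, with replicate 2 of EC1118 in FSJ under the background. In M25 it was not above the background on any of the 3 FSJ arrays, against 44.0 ± 11.5 in SJ, so it was at least 2.27-fold lower there. In EC1118 against M25 5 of the 14 were called higher in FSJ and 0 lower, beside 22.7% and 12.4% of all probe sets. With quantile normalization 3 were higher and 2 lower (15.9% and 15.5% of all probe sets), and with centred arrays 3 and 3 (12.8% and 21.7%). The count higher was 2 with only the compared groups, and 3 without replicate 1 or 3 of EC1118 in FSJ or replicate 2 of M25 in FSJ. CSE4, the H3 variant of centromeres, averaged 56.3 ± 17.9 in EC1118 in FSJ, against 53.6 ± 10.0 in SJ, and 50.6 ± 7.50 in M25 in FSJ, against 61.7 ± 15.9 in SJ, and did not pass (-0.11, adjusted p = 0.747).

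**Figure D5:**
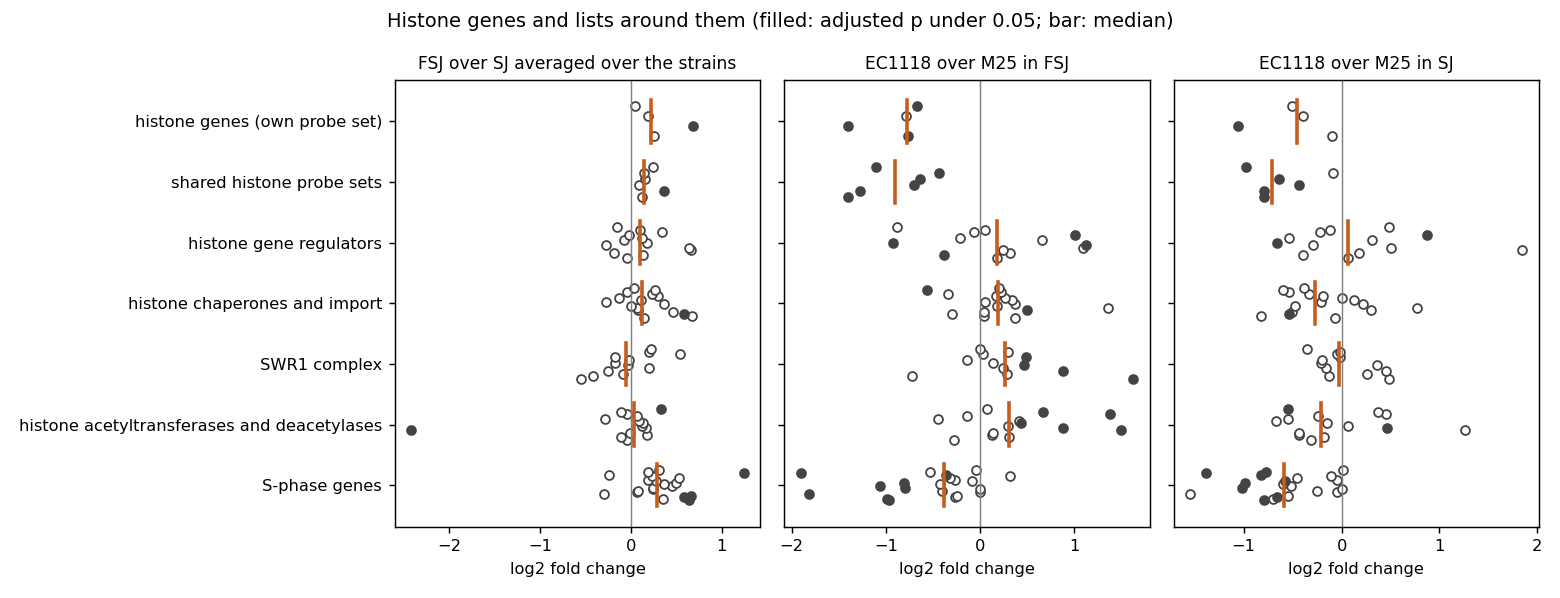
Fitted log2 fold changes of the histone probe sets and of the genes of the 5 lists (1 point per gene or probe set, filled where the adjusted p was under 0.05, bar at the list median) for FSJ over SJ averaged over the strains and for EC1118 over M25 in each medium. The histone medians of -0.78 and -0.90 and the S-phase median of -0.38 lie below 0 for EC1118 over M25 in FSJ, and those of the other lists lie above 0. The median over all probe sets in that comparison was 0.13, and -0.11 with centred arrays.

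The genes whose signals ran most like the mean of HTB1 and HTB2 over the 12 arrays were sought. The measure was the root mean square difference between their centred log2 signals and the mean of the centred HTB1 and HTB2 signals. The median of this difference over 5356 other genes was 0.64, and the closest 5% of them lay under 0.356. The 5 closest genes were YNCJ0023C, a tRNA gene, at 0.18, TOS7 at 0.18, GDS1 at 0.18, NRT1, which encodes a nicotinamide riboside transporter, at 0.19, and HIS3, an enzyme of histidine synthesis, at 0.20. All 5 are a description of likeness over these 12 arrays, and none is a histone gene. Among the shared probe sets, the H2A probe set 7358_s_at was closest at 0.16, the H4 probe set was at 0.23, 6236_i_at at 0.27 and the H3 probe sets at 0.28 to 0.37. HHO1 was at 0.357 and HTZ1 at 0.374. Both lay past the cut for the closest 5% of other genes, as did the H3 probe set 8910_at (0.373). HTB1 and HTB2 themselves were each at 0.26 from their mean, farther than the 5 closest genes. HIS3 for example gave 545.5, 626.6 and 438.9 in EC1118 in FSJ, against 1121.2, 1306.2 and 1215.4 in M25 in FSJ, and 463.3, 437.3 and 477.3 in EC1118 in SJ, against 717.2, 743.6 and 721.8 in M25 in SJ. Its order of group means, M25 in FSJ, M25 in SJ, EC1118 in FSJ and EC1118 in SJ, was that of HTB2.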

How the data were processed

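The 12 one-colour arrays carry signal intensity values deposited on a linear scale. They were made by the authors with MAS5, per the submitters' processing notes, and the sources used here do not give its version or target. The 60 control probe sets were set aside, and 7349 of the other 9275 passed a filter, a signal over the 25th percentile of its array on 3 or more arrays. Values under 1 became 1 before log2. A gene with several probe sets was taken by the brightest on average. Symbols came from the platform annotation (6504 probe sets with 1 symbol, 328 with several, 2443 with none) and neighbours from annotation R64. No sequence table was used here.

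A limma 3.58.1 model (R 4.3.3) took the 4 groups' means from all arrays together, with moderated variances that follow intensity. Benjamini-Hochberg adjustment ran across every kept probe set, with 0.05 as the threshold, and the code was tested on simulated data. SE is that of the model. The copy difference was tested by exact permutation, which was possible for H2B alone of the 4 copy pairs planned. Named genes are the 10 histone genes, CSE4, the 5 genes closest to the mean of HTB1 and HTB2, and called genes from each list. The latter were at most 2 per direction for the averaged lipid effect and 1 for the interaction, by adjusted p. The shared probe sets and the strain test of the copies were added after the data were seen. The genes, lists and tests were all chosen with earlier results of these data known.

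Alternatives were quantile normalization, centring on medians, log2(signal + 16), a floor at the background, no filter, a filter on 6 arrays, a replicate block, an untrended variance, averaged probe sets per gene, the compared groups alone, suffixed probe sets removed, and each array left out.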

Additional observations from a re-analysis of the deposited data

How the results depend on the processing

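The strain calls of HTB2 and of the shared H2A and H4 probe sets, the HTB1 call in FSJ and the averaged lipid call of HTB2 held under every alternative run for them. Other counts moved, and the cause was not tested. With quantile normalization the shared probe sets called higher were 0 with lipids on average (1 as reported) and 0 in M25 (3), and 7368_i_at turned to -0.029 on average and -0.026 in M25. With centred arrays these were 3 shared on average, 2 histone genes higher in M25 (1) and 2 shared lower for the interaction (0), and the interaction of 7369_s_at turned to -0.25. No filter and no intensity trend each left 0 shared on average, and no trend left 1 in M25. With only the compared groups, 2 histone genes were higher in M25 and 2 lower in EC1118 in SJ (1). Suffixed probe sets left out leave 1 shared probe set, with 0 called on average, 1 in M25, and for EC1118 over M25 0 in SJ and 1 in FSJ. Over all probe sets the averaged lipid calls were 506 higher and 299 lower with centred arrays, against 296 and 372, and the interaction calls 9 and 51, against 11 and 4. Quantile normalization gave 185 and 246 for lipids in M25 and 1172 and 1138 for EC1118 over M25 in FSJ.

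Same-numbered arrays of FSJ and SJ had deviations that correlated by -0.16 to 0.14, so the numbers did not pair them. With the replicate block 2 histone genes were called higher in M25, HTB2 and HTB1 (HTB1 at adjusted p = 0.034), the copy difference of -0.43 had an exact sign-flip p = 0.0938, and the interaction calls over all probe sets were 3 and 1. HHO1 gained a call for EC1118 over M25 in FSJ (adjusted p = 0.0332), 7368_i_at lost its call in SJ (0.0655) and 6236_i_at its call with lipids in M25 (0.052).

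Leaving out 1 array at a time gave 0 to 1 shared probe sets higher on average, 0 to 2 histone genes and 0 to 3 shared probe sets higher in M25, 1 to 2 histone genes and 4 to 5 shared probe sets lower in EC1118 in SJ, 2 to 4 histone genes lower in FSJ, and a copy difference of -0.57 to -0.30. Lipid effects near 0 changed sign, with HTZ1 at -0.018 to 0.15 on average and -0.0047 to 0.33 in M25. In EC1118 the ranges were -0.28 to 0.021 for HTB1, -0.32 to 0.19 for HHO1, -0.084 to 0.041 for HTZ1, -0.023 to 0.21 for 7358_s_at, -0.19 to 0.088 for 7368_i_at and -0.071 to 0.0086 for 8910_at. The interaction ranged from -0.11 to 0.096 for 7369_s_at and -0.20 to 0.020 for 8911_s_at. The planned copy tests of H2A, H3 and H4 were not run, since no probe set reads 1 copy alone. Only-the-compared-groups gives no separate fit where all 4 groups are compared.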
